A study of Mus musculus with 7 samples.

Results

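The insulin-like growth factor (IGF) pathway was described through 10 genes, chosen by symbol from the deposited count table. They are the ligands Igf1 and Igf2, the receptors Igf1r and Insr, the receptor substrates Irs1 and Irs2, and the binding proteins Igfbp2, Igfbp4, Igfbp5 and Igfbp6. All 10 had a row among the 21965 genes of the table, and all 10 were among the 14417 genes that passed the filter on low counts.

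Mouse hippocampus was profiled by RNA-seq in 3 blank control libraries (Control) and in 4 libraries labelled NIHHL, for noise-induced hidden hearing loss, in which hearing is harmed by noise although thresholds recover. Noise was given at 110 dB for 2 h and, per the series' design text, the hippocampi of both groups were collected 1 month after induction. Strain, sex, age and genotype are not among the labels. Nor do the labels name separate animals, and the p-values therefore reflect the spread between these libraries, which may be technical. Polyadenylated RNA was sequenced from whole tissue, in which fewer cells of a type and less RNA per cell cannot be told apart.

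IGF1 and IGF2 are secreted peptides related to insulin. They act mainly through the tyrosine kinase receptor IGF1R and, with the insulin receptor INSR, signal through the docking proteins IRS1 and IRS2 to the PI3K and AKT kinases. Secreted IGF-binding proteins hold the ligands and set how much reaches the receptors. In the adult brain Igf2 transcript is known mainly from the choroid plexus, which secretes cerebrospinal fluid, and from the meninges, and hippocampal IGF2 has been studied for its role in memory.

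Total counts ran from 14871376 to 24515146 per library. Markers of hippocampal principal neurons (11 genes, among them Prox1, Calb1 and Camk2a) summed to between 5246 and 6560 CPM in Control and between 5752 and 6224 CPM in NIHHL. CPM is the usual count scaled to library size, here with TMM scaling. The libraries differed most in choroid plexus markers: the share of counts from Ttr, the chief choroid plexus transcript, ran from 0.00561% in Control replicate 1 to 0.788% in NIHHL replicate 1. Ependymal markers had a log2 fold change above 0 for 10 of 10 genes (median 0.44, summed level 46.1 to 79.3 CPM in Control and 77.5 to 95.8 CPM in NIHHL). Of these, 5 had an unadjusted p under 0.05 by edgeR, as did 4 of 10 oligodendrocyte markers (3.63% of all genes). The groups did not overlap for 2 ependymal markers (5.20% of all genes). Astrocyte markers were likewise above 0 for 10 of 10 genes (median 0.085), where 49.9% of all genes were. Of the astrocyte markers, 2 did not overlap and 1 had an unadjusted p under 0.05 (edgeR). In the thalamus and habenula list the groups did not overlap for 1 of 7 genes tested. No gene of the marker lists was called after adjustment, and neither was any other gene (0%). The libraries also differed along a trend with transcript length. For 2200 tested genes with a longest transcript above 6000 bases, the median of their log2 CPM, relative to each gene's mean over libraries, was -0.13 in Control replicate 2 and 0.13 in NIHHL replicate 4, against 0.083 in Control replicate 1 and -0.049 to 0.012 in the other libraries. For 2711 genes with a longest transcript of at most 2000 bases it was 0.18 in Control replicate 2, -0.16 in NIHHL replicate 4, -0.11 in Control replicate 1 and -0.0091 to 0.054 in the others.

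The upstream sequences of Igf2 and Igfbp2 are shown because these genes had the widest range over the libraries and rose and fell together. They come from RefSeq on build GRCm38.p6 and cover the 250 bases before a transcription start, 5′ to 3′ on the strand of the gene. Capitals mark matches to the GC box GGGCGG, searched on both strands. The Igf2 window (chr7:142657497-142657746, minus strand) lies before the start nearest the 3′ end among 4 starts listed for this gene, and the Igfbp2 window (chr1:72824230-72824479, plus strand) before the upstream of 2 starts. Neither window holds a base of an annotated exon.
Igf2: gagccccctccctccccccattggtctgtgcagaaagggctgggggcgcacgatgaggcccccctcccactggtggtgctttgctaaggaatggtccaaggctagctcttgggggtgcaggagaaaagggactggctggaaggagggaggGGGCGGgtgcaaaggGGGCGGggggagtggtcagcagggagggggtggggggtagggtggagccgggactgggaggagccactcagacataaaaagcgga
Igfbp2: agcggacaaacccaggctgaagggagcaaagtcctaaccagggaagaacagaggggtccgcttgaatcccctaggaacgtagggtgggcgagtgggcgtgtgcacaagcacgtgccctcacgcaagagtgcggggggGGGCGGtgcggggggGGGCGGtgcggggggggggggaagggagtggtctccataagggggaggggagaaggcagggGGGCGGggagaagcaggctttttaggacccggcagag
The Igf2 window held 2 GC boxes and the Igfbp2 window 3, where 32.7% of 32851 windows of the same length held at least 1. The window printed is the one with the most GC boxes for each gene: of the other 3 Igf2 windows 1 held a single GC box and 2 held none, and the other Igfbp2 window held none. Of the 13 windows listed for 9 of the members, 6 held a GC box, among them those of Igf1r, Irs1 and Irs2. None of the 13 held TAATCC, the core letters of the homeodomain factor OTX2 that is active in the choroid plexus, and 6.25% of all windows held it. TATAAA, also searched on both strands, was found in the windows of Igfbp4 and Igfbp6 (12.4% of all windows). In Igfbp4 it lay on the strand of the gene, and in Igfbp6 on the opposite strand only. Insr had no entry.

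Igf2 (ENSMUSG00000048583, chromosome 7, 142650766 to 142666816 on the minus strand of GRCm38) encodes the ligand IGF2. Its level was 47.7, 154 and 74.4 CPM in Control replicates 1 to 3 and 253, 57.8, 123 and 131 CPM in NIHHL replicates 1 to 4. The groups overlapped: Control replicate 2 lay above NIHHL replicates 2, 3 and 4, and NIHHL replicate 2 lay below Control replicate 3. The mean was 92.1 ± 55.4 CPM in Control (SD, n = 3) and 141 ± 81.6 CPM in NIHHL (SD, n = 4). The log2 fold change, NIHHL minus Control, was 0.61 (SE 0.64, 95% interval -1.02 to 2.24), with an adjusted p of 0.996 by edgeR's quasi-likelihood test. That interval runs from 0.494-fold to 4.74-fold. The estimate rested on single libraries, at 0.17 when NIHHL replicate 1 was left out, 0.31 when Control replicate 1 was and 1.21 when Control replicate 2 was. Choroid plexus markers were higher in NIHHL for 19 of 19 genes, with a median log2 fold change of 0.71 and none called. Over all genes 49.9% were higher. As markers of the same tissue they are not independent observations, and the groups overlapped. Their mean log2 CPM was 6.05 in Control replicate 2, against 3.42, 5.54 and 5.82 in NIHHL replicates 2, 3 and 4. Igf2 shares 3596 exon bases on the same strand with the annotated gene Gm49394, to which at most 26.5 counts were given in a library, against 707 or more for Igf2. It also overlaps the antisense gene Igf2os over 98 exon bases.

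Igf1 (ENSMUSG00000020053, chromosome 10, 87858265 to 87937042, plus strand), the ligand made in the brain by some neurons and by microglia, was far lower. It stood at 5.73, 5.87 and 8.63 CPM in Control replicates 1 to 3 and at 6.26, 8.56, 5.396 and 8.55 CPM in NIHHL replicates 1 to 4. Control replicate 3 and NIHHL replicates 2 and 4 were high and the other 4 libraries low, so the groups shared the same range. The counts behind these values were 85 to 183 per library. The 95% Poisson interval, which covers counting error only, was 7.22 to 10.1 CPM in NIHHL replicate 4 and 5.25 to 7.40 CPM in NIHHL replicate 1. For Igf1 the log2 fold change was 0.085 (SE 0.21, 95% interval -0.37 to 0.54, adjusted p = 0.996, edgeR). It was 0.30 without Control replicate 3 and -0.013 without Control replicate 1. Microglial markers (9 of 10 with a row, none at 0 in all libraries) summed to 506 to 539 CPM in Control and 476 to 599 CPM in NIHHL, and 10 interneuron markers to 1009 to 1078 and 1000.4 to 1086 CPM; their part in the levels of Igf1 was not tested.

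**Figure D1:**
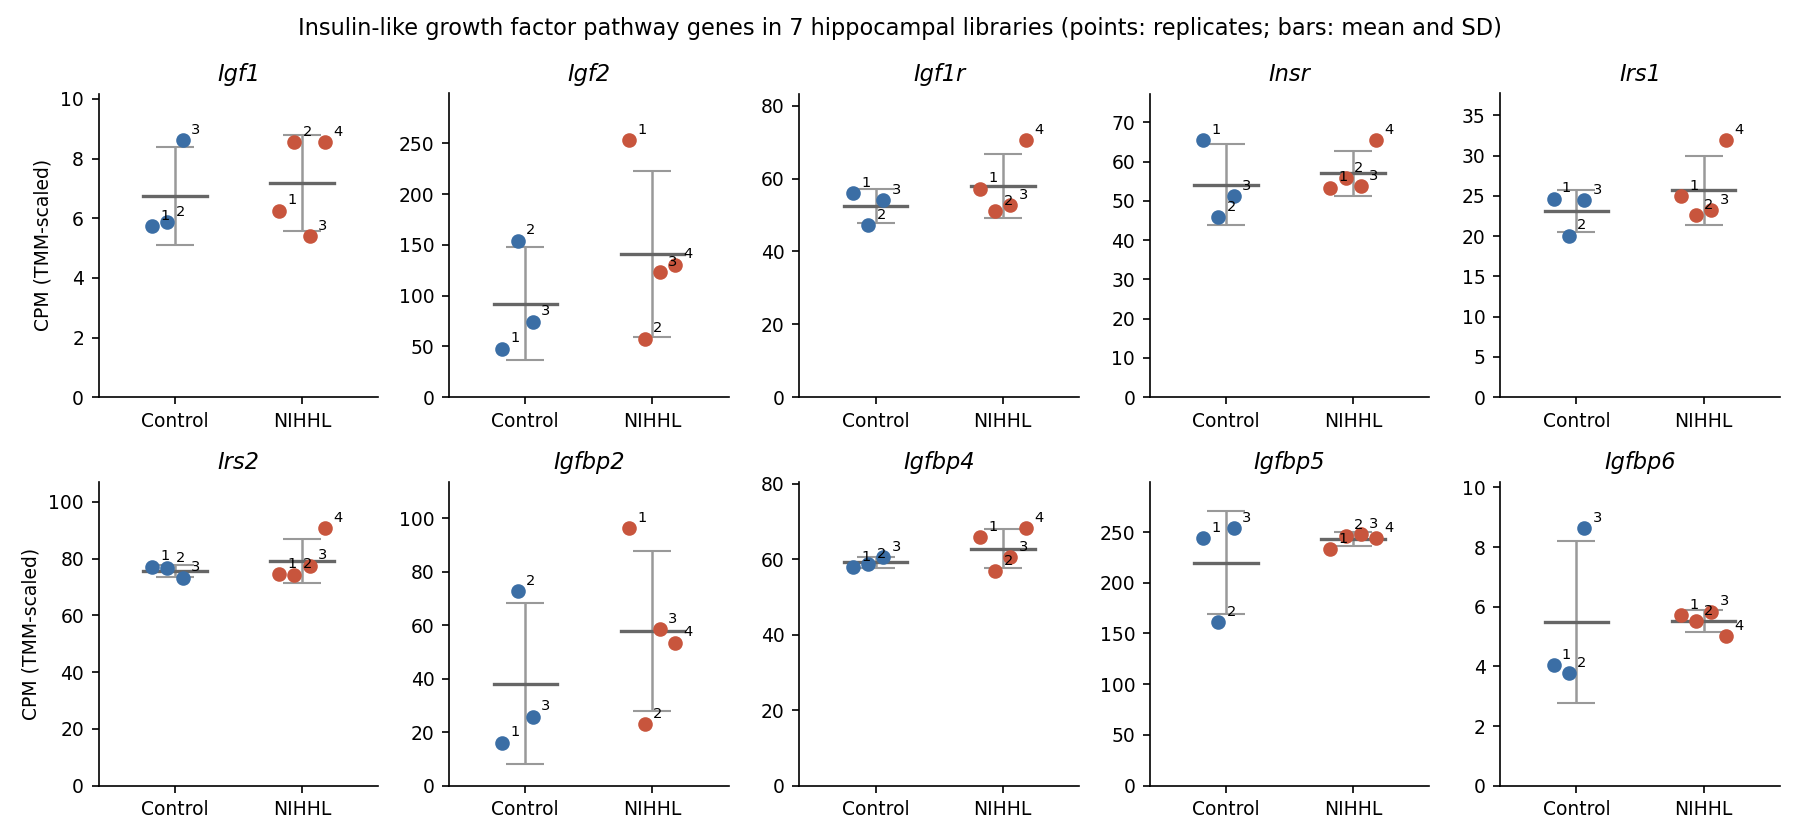
CPM of the 10 genes in the 3 Control and 4 NIHHL libraries, with replicate numbers beside the points and bars for the mean and SD. Igf2 and Igfbp2 spread widest, with NIHHL replicate 1 highest at 253 and 96.1 CPM, and in no gene did the groups separate.

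Igf1r (ENSMUSG00000005533, chromosome 7, 67952827 to 68233668, plus strand), the main receptor of both ligands, stood at 56.0, 47.3 and 54.2 CPM in Control replicates 1 to 3 and at 57.3, 51.1, 52.8 and 70.7 CPM in NIHHL replicates 1 to 4. Insr (ENSMUSG00000005534, chromosome 8, 3122061 to 3279617, minus strand), the insulin receptor, stood at 65.5, 45.8 and 51.1 CPM in Control and at 53.3, 55.7, 53.7 and 65.5 CPM in NIHHL. In both receptors Control replicate 2 was lowest, and NIHHL replicate 4 was highest for Igf1r and level with Control replicate 1 at the top for Insr. In log2 terms the difference was 0.14 (SE 0.11, 95% interval -0.10 to 0.39) for Igf1r and 0.079 (SE 0.12, 95% interval -0.19 to 0.35) for Insr, each with an adjusted p of 0.996 (edgeR). The value of Igf1r was 0.037 without NIHHL replicate 4, and that of Insr was -0.026 without Control replicate 2 and 0.23 without Control replicate 1.

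Irs1 (ENSMUSG00000055980, chromosome 1, 82233101 to 82291416, minus strand) was measured at 24.7, 20.1 and 24.5 CPM in Control replicates 1 to 3 and at 24.99, 22.6, 23.2 and 32.0 CPM in NIHHL replicates 1 to 4. Irs2 (ENSMUSG00000038894, chromosome 8, 10984681 to 11008458, minus strand) was at 77.1, 76.7 and 73.3 CPM in Control and at 74.6, 74.4, 77.5 and 90.7 CPM in NIHHL. NIHHL replicate 4 was the highest library for both docking proteins, and the other 3 NIHHL libraries lay inside the Control range or just above it. Irs1 had a log2 fold change of 0.16 (SE 0.13, 95% interval -0.13 to 0.44) and Irs2 one of 0.066 (SE 0.081, 95% interval -0.11 to 0.24), with an adjusted p of 0.996 for each (edgeR). For Irs2 the interval spans 0.925-fold to 1.184-fold. Without NIHHL replicate 4 these were 0.036 and -0.0027. Irs1 shares 2822 exon bases with Gm9747, and Irs2 shares 162 with 9530052E02Rik; both lie on the opposite strand, and strand use in counting was not stated in the labels.

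The receptors and substrates have long transcripts, from 6323 bases (Irs2) to 11409 bases (Igf1r). NIHHL replicate 4 is the library in which long transcripts stood highest. Igf1 (7052 bases) and Igfbp5 (6006 bases) are long as well, and NIHHL replicate 4 was not the highest library for either. With an offset for transcript length in each library, the log2 fold changes were 0.096 for Igf1r, 0.045 for Insr, 0.11 for Irs1 and 0.031 for Irs2. The smallest adjusted p among these 4 was 0.965 (edgeR). The part of transcript length in their levels was not tested.

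Igfbp2 (ENSMUSG00000039323, chromosome 1, 72824503 to 72852474, plus strand) encodes a binding protein known from the choroid plexus and from glia. Its level was 16.1, 72.6 and 25.7 CPM in Control replicates 1 to 3 and 96.1, 22.9, 58.5 and 53.4 CPM in NIHHL replicates 1 to 4. NIHHL replicate 1 and Control replicate 2 were the highest libraries, and NIHHL replicate 2 lay below Control replicate 3. The mean was 38.2 ± 30.2 CPM in Control (SD, n = 3) and 57.7 ± 30.03 CPM in NIHHL (SD, n = 4), and the log2 fold change was 0.58 (SE 0.71, 95% interval -1.21 to 2.38, adjusted p = 0.996, edgeR). As for Igf2, it moved with single libraries: to 0.22 when NIHHL replicate 1 was left out, to 0.23 when Control replicate 1 was and to 1.46 when Control replicate 2 was.

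Igfbp5 (ENSMUSG00000026185, chromosome 1, 72857932 to 72874884, minus strand) lies 5457 bases from Igfbp2, with their 3′ ends facing each other and no coding gene between them. It stood at 244, 161 and 254 CPM in Control replicates 1 to 3 and at 233, 246, 248 and 244 CPM in NIHHL replicates 1 to 4. Control replicate 2, in which Igfbp2 was second highest, was the lowest library for Igfbp5, and the other 6 libraries lay between 233 and 254 CPM. Its log2 fold change was 0.14 (SE 0.13, 95% interval -0.16 to 0.45, adjusted p = 0.996, edgeR), and -0.033 without Control replicate 2.

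Igfbp4 (ENSMUSG00000017493, chromosome 11, 99041244 to 99054392, plus strand) varied least, at 58.1, 58.8 and 60.7 CPM in Control replicates 1 to 3 and 65.8, 56.8, 60.6 and 68.2 CPM in NIHHL replicates 1 to 4. NIHHL replicates 1 and 4 lay above the Control libraries, NIHHL replicate 2 below them and NIHHL replicate 3 among them. With a log2 fold change of 0.087 (SE 0.077, 95% interval -0.083 to 0.26, adjusted p = 0.996, edgeR), the interval in folds was 0.944 to 1.19, the narrowest of the 10. Igfbp4 is known to keep IGF from its receptor until it is cleaved.

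Igfbp6 (ENSMUSG00000023046, chromosome 15, 102144362 to 102149511, plus strand), a binding protein that prefers IGF2, stood at 4.05, 3.78 and 8.63 CPM in Control replicates 1 to 3 and at 5.71, 5.52, 5.84 and 5.01 CPM in NIHHL replicates 1 to 4. The NIHHL libraries lay close together, inside the Control range, with an SD of 0.361 CPM against 2.73 CPM in Control. Igfbp6 had a log2 fold change of 0.0029 (SE 0.26, 95% interval -0.58 to 0.59, adjusted p = 0.9995, edgeR). It was 0.50 without Control replicate 3 and -0.22 without Control replicate 2. The mean log2 CPM of 15 meningeal fibroblast markers, among them Ogn, Mgp and Dcn, was also highest in Control replicate 3 (3.32) and lowest in Control replicate 2 (2.45). Their summed CPM was highest in NIHHL replicate 1 (248), followed by Control replicate 3 (237), and lowest in Control replicate 2 (182). The slope of Igfbp6 on the mean log2 CPM of these markers, with group in the model, was 1.22 (SE 0.30, adjusted p = 0.479, edgeR). For this score 0 of 14417 genes (0%) passed. Igf2 had a slope of -0.62 (SE 1.21) on it and Igfbp2 one of -1.12 (SE 1.28), each with an adjusted p of 0.9999 (edgeR).

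For all 10 genes together, 0 were called at an adjusted p under 0.05 by edgeR, 0 by DESeq2 and 0 at an unadjusted p under 0.05 by either. Of the 14417 genes tested by edgeR, 0% were called and 3.63% had an unadjusted p under 0.05. DESeq2 was run without the filter on low counts. Of the 18177 genes it tested, 0.0220% were called and 2.46% had an unadjusted p under 0.05. The groups did not overlap for 0 members and for 5.20% of all genes. The log2 fold change was above 0 for 10 of 10 members, with a median of 0.12, against 49.9% of all genes and a median of -4.54e-04. With Control replicate 2 and NIHHL replicate 4 both left out, 6 of the 10 were below 0. Control replicate 2 was the lowest Control library for Igf1r, Insr, Irs1, Igfbp5 and Igfbp6. NIHHL replicate 4 was the highest NIHHL library for Igf1r, Insr, Irs1, Irs2 and Igfbp4, of which Irs2 and Igfbp4 did not turn below 0. It was the lowest NIHHL library for Igfbp6. Leaving both libraries out therefore lowers the estimates of Igf1r, Insr and Irs1 by construction. For Igfbp5 and Igfbp6 this holds for the omission of Control replicate 2.

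**Figure D2:**
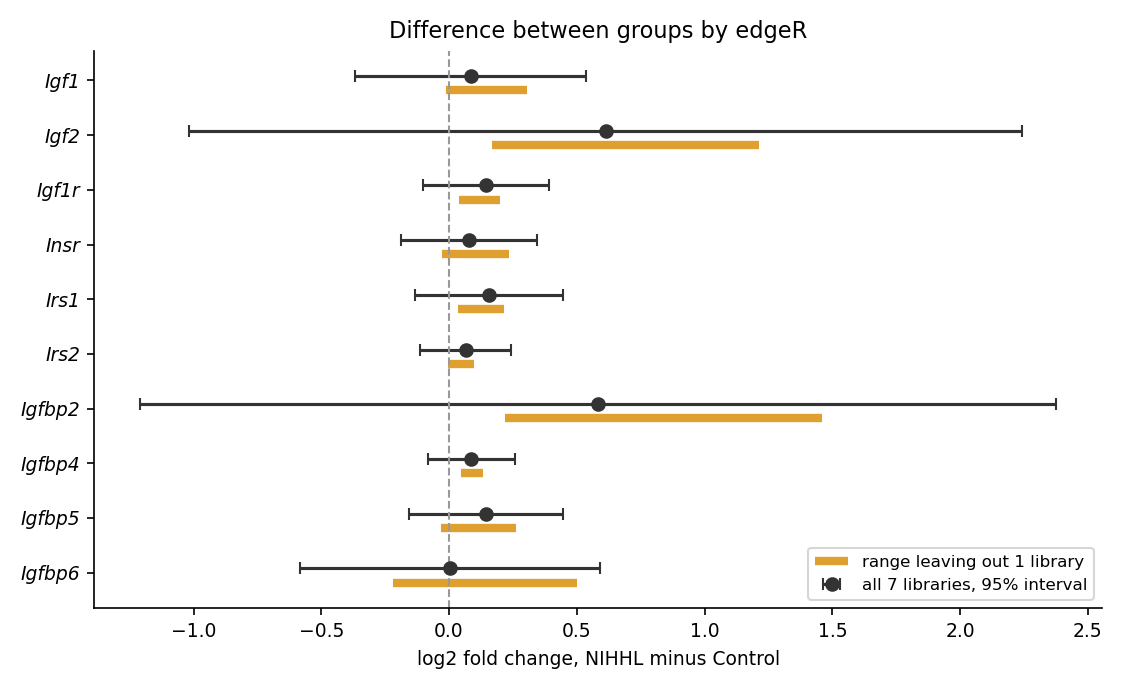
Log2 fold change of each gene (NIHHL minus Control) with its 95% interval from edgeR over 7 libraries, and below it the range of estimates when 1 library is left out. The intervals of all 10 genes include 0, and those of Igf2 (-1.02 to 2.24) and Igfbp2 (-1.21 to 2.38) are the widest.

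Divided by the length of the longest annotated transcript, the mean level over the 7 libraries was highest for Igfbp5 (38.8 CPM per kilobase), followed by Igfbp2 (37.8), Igf2 (25.5), Igfbp4 (16.0), Irs2 (12.3), Insr (5.97), Igfbp6 (4.95), Igf1r (4.87), Irs1 (2.69) and Igf1 (0.993). Some neighbours in this order changed places between libraries, and the differences between neighbours were not tested. Igfbp5 exceeded Igfbp2 in 3 of 7 libraries, Igf2 exceeded Igfbp4 in 4, Igfbp6 exceeded Igf1r in 4, and Insr exceeded Igfbp6 in 6. The other 5 neighbouring pairs kept their order in all 7. Shorter isoforms in use would raise these values, and isoform use was not analysed here.

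**Figure D3:**
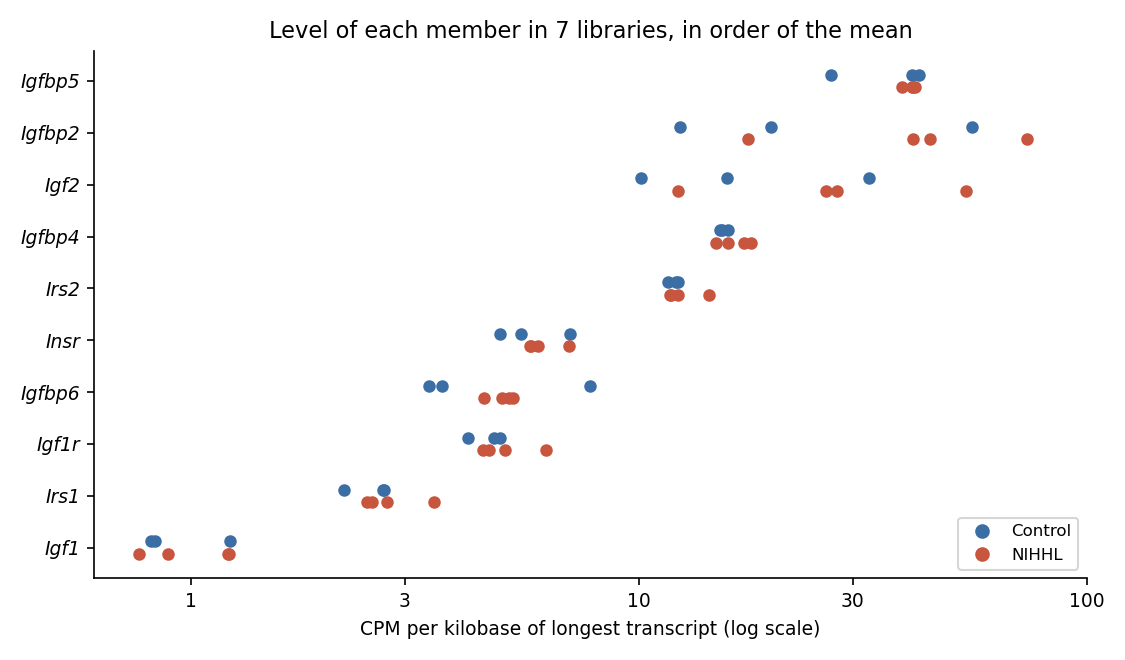
CPM per kilobase of longest transcript (log axis) of each gene in each library, in order of the mean. Igfbp2 and Igf2 span 12.3 to 73.6 and 10.1 to 53.7, across the levels of Igfbp5 and Igfbp4, and Igf1 is lowest in all 7 libraries.

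Only 2 of the 10 genes, Igf2 and Igfbp2, differed more than 3-fold between the highest and the lowest library, by 5.32-fold and 5.97-fold, and 5.33% of all tested genes did. The remaining 8 genes ranged from 1.201-fold (Igfbp4) to 2.29-fold (Igfbp6). Igf2 and Igfbp2 had the same order of libraries except that NIHHL replicates 3 and 4 changed places, and after centring their log2 CPM profiles differed by a root mean square of 0.18 over the 7 libraries. With predicted gene models left out, the genes with the closest profiles were Cd59a (0.14), Car14 (0.15), Baiap2l1 (0.15), Nid2 (0.16) and Slc16a9 (0.16) for Igf2. For Igfbp2 they were Cd59a (0.11), Col9a3 (0.18), Igf2 itself (0.18), Sfrp5 (0.19) and Krt18 (0.19).

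Both genes moved with the choroid plexus markers. The score, the mean log2 CPM of 19 markers with Ttr, Kl and Clic6 among them, stood at 2.08 in Control replicate 1, 6.05 in replicate 2 and 4.46 in replicate 3, and at 6.56, 3.42, 5.54 and 5.82 in the NIHHL libraries in order of replicate number. No marker was at 0 in all libraries, and their summed level was 441 to 9489 CPM in Control and 1096 to 12410 CPM in NIHHL. With group in the model, the slope per unit of this score was 0.51 for Igf2 (SE 0.065, 95% interval 0.36 to 0.66, adjusted p = 0.00727, edgeR) and 0.58 for Igfbp2 (SE 0.061, 95% interval 0.45 to 0.72, adjusted p = 0.00115). Of the 10 members these 2 had such a slope, both positive, where 1.21% of all tested genes had one and 1.19% a positive one. Ttr, which is in the score, had a slope of 1.54 (SE 0.14).

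The other 8 members had slopes between -0.086 (SE 0.041, Igfbp5) and 0.034 (SE 0.027, Igfbp4), with adjusted p of 0.571 or more (edgeR). The slope of Igfbp2 passed whichever library was left out, between 0.53 and 0.69. The slope of Igf2 lay between 0.44 and 0.64, and its adjusted p was 0.0603 without Control replicate 2, 0.0757 without NIHHL replicate 2 and 0.0884 without NIHHL replicate 4 (edgeR). With the score as a covariate, the difference between the groups was 0.041 (SE 0.20) for Igf2 and 0.060 (SE 0.18) for Igfbp2, against 0.61 and 0.58 without it. What lay behind this change was not tested.

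**Figure D4:**
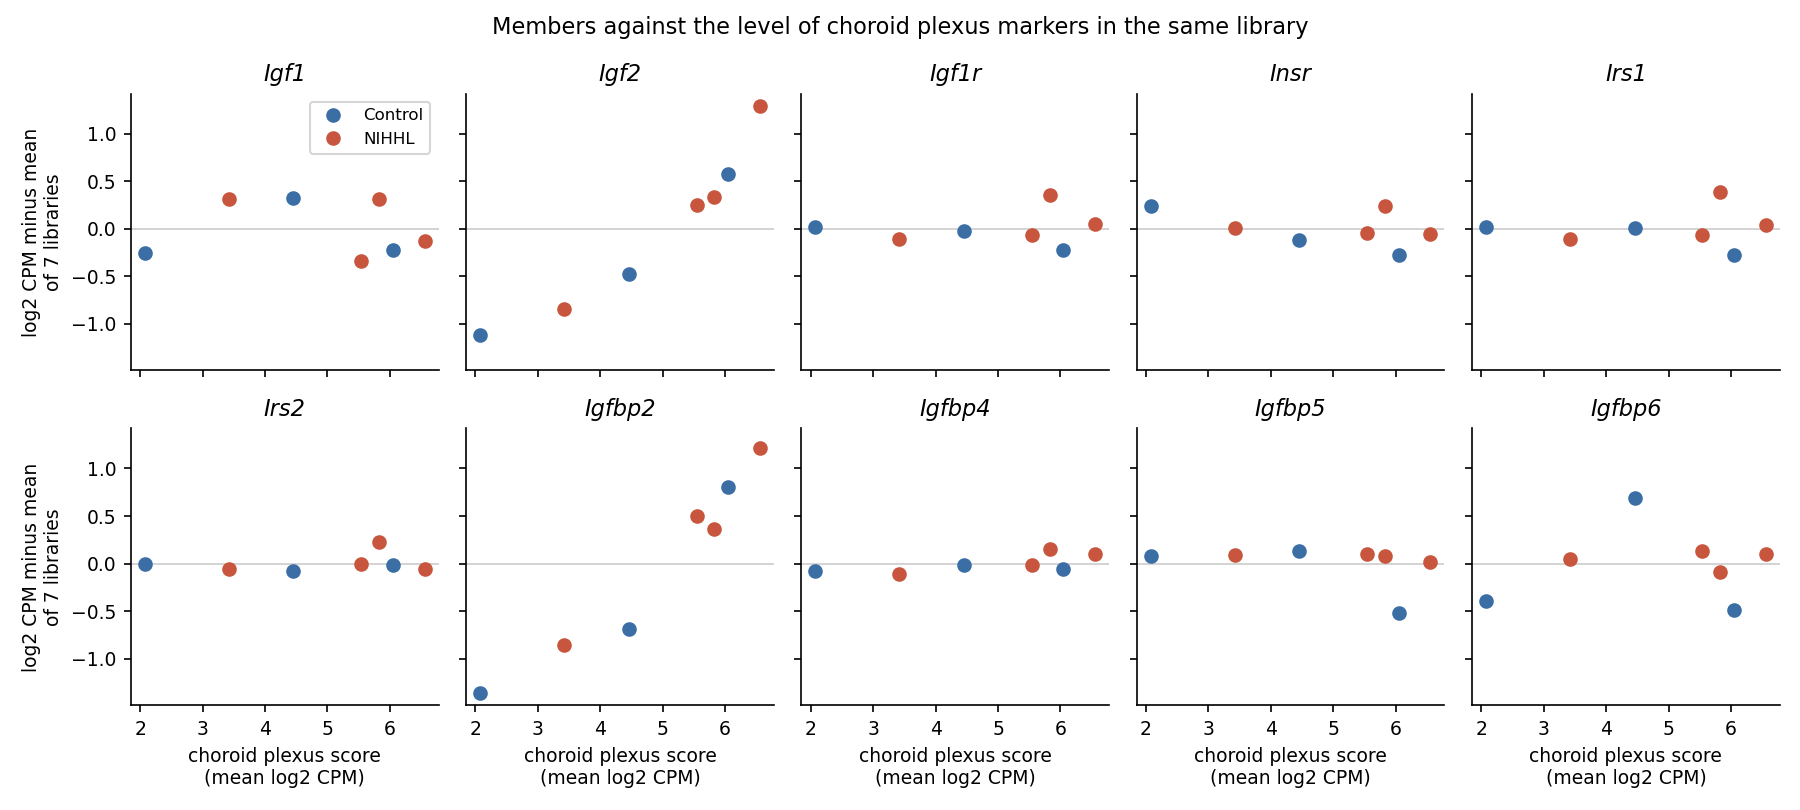
Log2 CPM of each gene, centred on its mean over 7 libraries, against the mean log2 CPM of 19 choroid plexus markers in the same library. Igf2 and Igfbp2 climb from Control replicate 1 (score 2.08) to NIHHL replicate 1 (score 6.56), and the other 8 genes show no slope that passed the test.

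A further 67 genes of the pathway were listed, of which 58 were tested and 0 were called in either direction by edgeR or DESeq2. At an unadjusted p under 0.05 there were 4 by edgeR (3.63% of all genes) and 2 by DESeq2 (2.46% of the genes DESeq2 tested). Their median log2 fold change was 0.015.

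Among the other ligands, receptors and binding proteins (11 tested of 14, 8 higher and 3 lower in NIHHL, median 0.075), the smallest p-values were those of Igfbpl1, Lrp2 and Igfbp3. Igfbpl1, a binding-protein-like gene expressed in immature neurons, averaged 4.17 ± 0.712 CPM over the Control libraries and 5.58 ± 0.707 CPM over the NIHHL libraries, a log2 fold change of 0.41 (SE 0.17). Lrp2, the endocytic receptor megalin, had 0.53 (SE 0.33), and Igfbp3, the main binding protein of the circulation, had -0.21 (SE 0.14), each with an adjusted p of 0.996 (edgeR).

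Among adaptors and inhibitors at the receptor (17 tested of 20, median 0.024) were Socs2, a suppressor of growth hormone and IGF signalling, at 11.99 ± 0.803 CPM in NIHHL and 14.8 ± 1.84 in Control (-0.30, SE 0.11). Gab1, a docking adaptor, was at 48.7 ± 4.77 against 41.2 ± 5.33 CPM (0.24, SE 0.11), and Ptprf, a receptor phosphatase, had a log2 fold change of 0.16 (SE 0.076). The adjusted p was 0.996 for each (edgeR).

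The PI3K, AKT, FOXO and mTORC1 branch downstream of the receptors (26 tested of 26, 12 higher and 14 lower, median -0.0052) had log2 fold changes between -0.29 and 0.12. The forkhead factor Foxo6 had -0.29 (SE 0.13), the S6 kinase Rps6kb1 -0.18 (SE 0.097) and the translation repressor Eif4ebp2 0.12 (SE 0.077), all with an adjusted p of 0.996 (edgeR). Of the Igf2 mRNA-binding proteins and imprinted genes, 4 of 7 were tested. Igf2bp2 had 0.20 (SE 0.46), Dlk1 -0.046 (SE 0.26) and Cdkn1c, a cell cycle inhibitor, 0.21 (SE 0.52), with adjusted p of 0.996 or more (edgeR).

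Cdkn1c and Igfbp7 were the 2 of the 58 genes whose slope on the choroid plexus score passed (1.21% of all genes). Cdkn1c stood at 3.71, 11.999 and 6.04 CPM in the Control libraries and 14.5, 4.25, 6.72 and 8.38 CPM in the NIHHL libraries, with the same 2 libraries on top as for Igf2 and Igfbp2. The slope was 0.48 (SE 0.064, adjusted p = 0.00260, edgeR) for Cdkn1c and 0.18 (SE 0.038, adjusted p = 0.0457) for Igfbp7, named after its value was seen. The slope of Cdkn1c had an adjusted p of 0.0842 without Control replicate 2. That of Igfbp7 passed only with NIHHL replicate 4 left out (adjusted p = 0.0220, edgeR) among the 7 single omissions, the highest adjusted p being 0.350 without Control replicate 2.

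The insulin genes, the remaining ligands of INSR and products of pancreatic beta cells, were named after their values were seen. Ins2, which lies 11839 bases from Igf2 on the same strand, stood at 19.8, 2.27 and 19.4 CPM in Control replicates 1 to 3 and at 18.9, 19.9, 17.5 and 5.66 CPM in NIHHL replicates 1 to 4. Ins1 stood at 3.78, 0.210 and 3.25 CPM in Control and at 2.53, 3.45, 2.202 and 0.413 CPM in NIHHL. Control replicate 2 and NIHHL replicate 4 were low for both genes and the other 5 libraries lay close together, in both groups alike. Log2 fold changes were 0.19 (SE 0.81) for Ins2 and -0.11 (SE 0.90) for Ins1, with adjusted p of 0.996 and 0.9995 (edgeR). These genes are close paralogs, and whether the counting divided reads between them was not tested. The deposited counts of both genes were whole numbers in every library. Their pattern differed from that of Igf2, which was high in Control replicate 2.

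**Figure D5:**
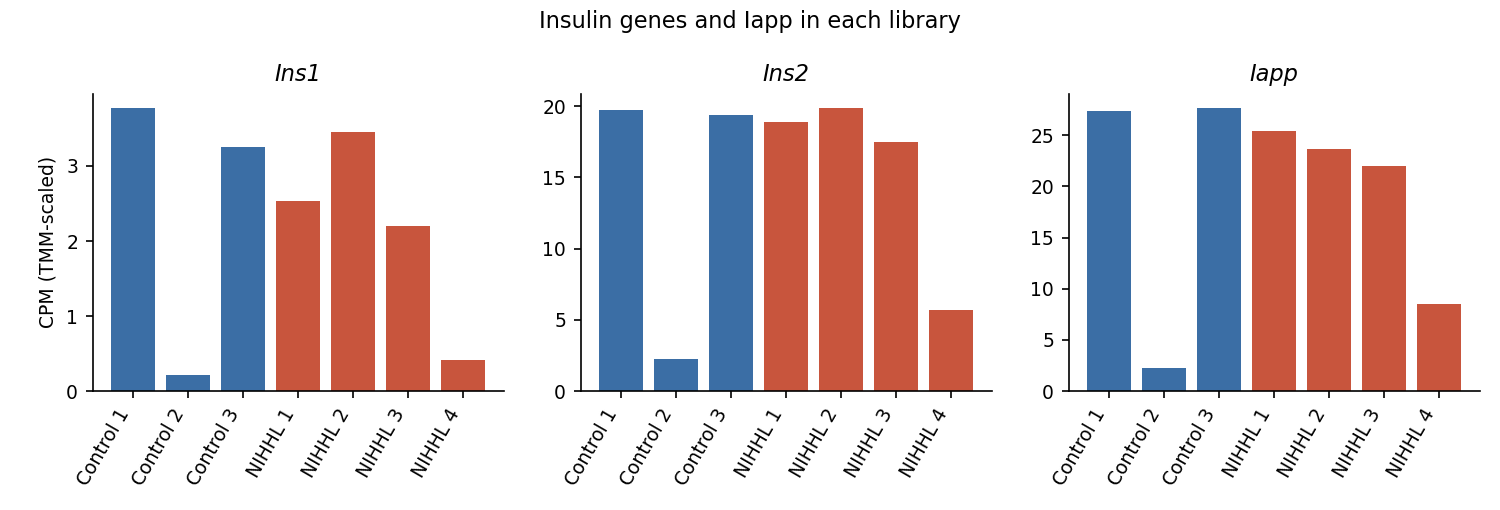
CPM of Ins1, Ins2 and Iapp (amylin, another beta cell hormone) in each library. Control replicate 2 (0.210, 2.27 and 2.22 CPM) and NIHHL replicate 4 (0.413, 5.66 and 8.55 CPM) are the 2 low libraries for all 3 genes.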

How the data were processed

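The values deposited by the authors are expected counts per gene, unscaled, and 90.7% of them are whole. StringTie 1.3.1, HISAT2, DESeq2 and Bowtie2 2.2.8 are listed in the submitters' processing notes, with no roles. Build, annotation and counter: not given in the sources used here.

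Expected counts were rounded. Genes were filtered with edgeR's filterByExpr (minimum count 10) and libraries scaled by TMM. NIHHL was compared with Control over all 14417 genes by edgeR's quasi-likelihood test (robust), with Benjamini-Hochberg adjustment over those genes and a threshold of 0.05. SEs were derived from the F statistic. Log2 CPM carries a prior count of 2. Slopes on marker scores come from the same fit with the score and group as terms; they were added after the data were seen. Scores leave out the 10 members. The scripts were tested on simulated data. Positions and transcript lengths are from GENCODE M21 (GRCm38) and upstream sequences from RefSeq. Versions were R 4.3.3, edgeR 4.0.16, limma 3.58.1 and DESeq2 1.42.0.

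The members and gene lists were chosen with earlier results of these data known. Genes named were the 10 members, up to 3 per other pathway list with the smallest p, and the 5 closest profiles of members with an SD of log2 CPM above 0.5. Predicted gene models (Gm followed by digits, or names ending in Rik) were left out of the search for close profiles.

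Replicate numbers are shared between the groups, and the labels tie them to no animal or batch. Alternatives were other scaling, filters, tests, omitted libraries, a replicate block, marker scores as covariates and a transcript length offset.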

Additional observations from a re-analysis of the deposited data

How the results depend on the processing

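None of the 10 members and none of the 58 other pathway genes was called under any of the 11 alternatives to edgeR's main fit or with any 1 of the 7 libraries left out. Over all genes, DESeq2's Wald test called 4 and the fit without Control replicate 2 and NIHHL replicate 4 called 1, where edgeR called 0 (523 at an unadjusted p under 0.05). Leaving out Control replicate 2 and NIHHL replicate 4 together turned 6 log2 fold changes below 0. These were Igf1 (-0.11), Igf1r (-0.031), Insr (-0.097), Irs1 (-0.056), Igfbp5 (-0.037) and Igfbp6 (-0.18). For all of these but Igf1, Control replicate 2 was the lowest Control library. The cause of its lower values was not tested. Igfbp6 was also below 0 with the choroid plexus score (-0.0066) and the meningeal score (-0.15) as a covariate. Igf2 and Igfbp2 stayed above 0 under all alternatives, from 0.041 to 1.25 and from 0.060 to 1.49. With 1 library left out, the log2 fold change ranged from -0.013 to 0.30 for Igf1, from -0.026 to 0.23 for Insr, from -0.0027 to 0.097 for Irs2, from -0.033 to 0.26 for Igfbp5 and from -0.22 to 0.50 for Igfbp6. Slopes on the choroid plexus score ranged from -0.17 to 0.023 for Igf1, from -0.053 to 0.048 for Igf1r, from -0.067 to 0.053 for Irs1, from -0.010 to 0.032 for Irs2 and from -0.15 to 0.15 for Igfbp6. With the replicate number as a block over replicates 1 to 3, Irs2 was at -0.0029, no other member turned and 0 genes were called. The main fit had no block because the replicate numbers only name samples in the labels. The deviations of same-numbered libraries correlated at -0.45, -0.44 and 0.061, and so few libraries cannot decide whether the samples were paired. The lowest counts per library were 60 for Igfbp6 and 85 for Igf1, against 239 or more for the other 8 members. The largest SEs of the log2 fold change were those of Igfbp2 (0.71) and Igf2 (0.64).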

Other observations

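The pattern of Ins1 and Ins2 over the libraries was shared by other genes of pancreatic beta cells, listed after these values were seen. Iapp stood at 27.4, 2.22 and 27.7 CPM in Control replicates 1 to 3 and at 25.4, 23.7, 22.0 and 8.55 CPM in NIHHL replicates 1 to 4. Control replicate 2 and NIHHL replicate 4 were the 2 lowest libraries for 5 of 8 genes listed: Ins1, Ins2, Iapp, G6pc2 (a glucose-6-phosphatase of islets) and Slc30a8 (the zinc transporter of insulin granules). G6pc2 lay between 1.87 and 2.55 CPM in the other 5 libraries, against 0.0839 and 0.590 CPM in these 2. The beta cell factors Pdx1, Nkx6-1 and Mafa did not follow this order. The alpha cell hormone Gcg had at most 6 counts in a library, and Ppy and Pyy had 0 in all.

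Genes of the liver and the exocrine pancreas were also listed after values were seen. Alb, serum albumin of the liver, had 302 counts in NIHHL replicate 4, 29 in NIHHL replicate 2 and at most 1 in the other 5 libraries. Of 8 exocrine pancreas genes, 5 were highest in NIHHL replicate 4 with few or no counts elsewhere: Cela2a (21 counts), Ctrb1 (18, and 2 in Control replicate 3), Prss2 (6), Cela3b (5) and Cpa1 (3). The other 3 did not follow this. Clps had 26, 1 and 22 counts in the Control libraries, by replicate number, against 0, 28, 64 and 8 in the NIHHL libraries, Pnlip had 2 to 11 in every library, and Prss1 had 0 in all. Where these transcripts came from was not tested.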
